A study of Mus musculus with 9 samples.

Results

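The clustered histone genes were followed in colonic CD4+ T cells of mice that had received CD160 knockout or wildtype donor cells. The genes were all rows of the expression table whose symbol begins with Hist1h, Hist2h, Hist3h or Hist4h, which gave 69 of 23415 genes, with 6 of class H1, 19 of H2A, 19 of H2B, 12 of H3 and 13 of H4. Naive CD4+ CD25- CD45RBhigh T cells from CD160 knockout mice or their wildtype littermates were injected into Rag1-/- recipients, which have no T or B cells of their own but keep their myeloid cells, and colitis developed. When disease peaked, CD4+ T cells were sorted from the colonic lamina propria and their polyA RNA was made into full-length cDNA libraries, giving 4 knockout and 5 control libraries. The strain, age and sex of the mice and the deleted part of Cd160 were not given in the sources used here. Nor do the labels state that every library had a recipient of its own, so p-values describe the spread between libraries. Values were TPM, a relative abundance of each gene's transcripts, which correct for transcript length and library total but keep no sequencing depth, so no counting error could be attached to a value.

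Histones are the proteins around which nuclear DNA is wound. H2A, H2B, H3 and H4 form the core of the nucleosome and H1 binds the linker DNA between nucleosomes. Most of the clustered genes are replication-dependent: their transcripts accumulate while DNA is copied in S phase, and they usually end not in a polyA tail but in a short hairpin, the stem-loop, which is bound by the stem-loop binding protein Slbp. Some of these genes can also give polyadenylated transcripts, and a polyA-based library may capture the forms with and without a tail unequally, which was not measured here.

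The genes lay in 4 clusters in GRCm38 (GENCODE M21 annotation). The Hist1 cluster on chromosome 13 held 55 of them, 23 at chr13:21715763-22043676 and 31 at chr13:23531050-23934851, with the pseudogene Hist1h2al apart from both blocks. The Hist2 cluster held 10 genes at chr3:96219865-96270132, on the same chromosome as Cd160 itself (chr3:96798763-96829351). The Hist3 cluster held 3 genes at chr11:58948920-58956830, and Hist4h4 stood alone at chr6:136801553-136804415. The stem-loop of 16 bases was searched on the transcript strand as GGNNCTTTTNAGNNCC. It was present after the stop codon in the gene models of 44 of the 69 genes. In 55270 other genes the whole transcript was searched, not only the part after a stop codon, and 45 held the motif (0.0814%). Of the 25 genes without it, 15 had models that ended within 10 bases of the stop codon, so for these the annotation could not show a stem-loop. A polyadenylation signal, AATAAA or ATTAAA, lay within 40 bases of the end of a model in 17 genes.

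The stem-loop came in 6 forms. An example of each is shown with the flanking bases of the transcript, 5′ to 3′, with the stem-loop in capitals. Hist1h4b and Hist1h4j, both carriers of a rare form, are shown because each had the lowest p of a comparison below. They were chosen after the values were seen. Of the 44 stem-loops, 26 had the form shown for Hist1h1c, 7 that of Hist1h4c, 6 that of Hist1h3e, 2 that of Hist1h4i, 2 that of Hist1h4b and Hist1h4j, and 1 that of Hist2h2ac.
Hist1h1c: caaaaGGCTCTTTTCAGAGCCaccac
Hist1h4c: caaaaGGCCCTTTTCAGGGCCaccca
Hist1h3e: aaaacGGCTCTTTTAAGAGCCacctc
Hist1h4i: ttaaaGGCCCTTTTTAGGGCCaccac
Hist2h2ac: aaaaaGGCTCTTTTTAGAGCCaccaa
Hist1h4b: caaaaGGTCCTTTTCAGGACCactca
Hist1h4j: ctaaaGGTCCTTTTCAGGACCaccac

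Promoter windows of 250 bases before to 50 bases after the start, from RefSeq (GRCm38.p6), were available for 62 of the genes. The CCAAT box, searched as CCAAT on both strands, was present in 85.5% of these windows against 37.4% of all 32851 windows of the same length. It was in every H1, H2A, H2B and H3 window but in 25% of the H4 windows. TATAAA was present in 56.5% against 13.6%, also on both strands. The octamer ATTTGCAT, a known element of H2B promoters, was in 21.0% of the histone windows against 1.74% of all, in 37.5% of the H2B and 38.9% of the H2A windows. AAACACA, known from H1 promoters, was in 83.3% of the H1 windows against 7.18% of all. A match is a description of the letters only. A pair of windows is shown, each from a gene that was lower in every knockout library, because an H2B and an H4 promoter share few of these elements, with the motifs in capitals (ATTGG is CCAAT read on the other strand).
Hist1h2bg (chr13:23571150-23571449, plus strand, GRCm38.p6): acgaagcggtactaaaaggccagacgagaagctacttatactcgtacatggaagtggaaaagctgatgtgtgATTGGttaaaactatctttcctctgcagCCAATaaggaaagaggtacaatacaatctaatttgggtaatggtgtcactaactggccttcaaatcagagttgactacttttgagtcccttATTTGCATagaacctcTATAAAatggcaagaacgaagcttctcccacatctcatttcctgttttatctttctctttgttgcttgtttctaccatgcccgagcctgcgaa
Hist1h4j (chr13:21734784-21735083, plus strand, GRCm38.p6): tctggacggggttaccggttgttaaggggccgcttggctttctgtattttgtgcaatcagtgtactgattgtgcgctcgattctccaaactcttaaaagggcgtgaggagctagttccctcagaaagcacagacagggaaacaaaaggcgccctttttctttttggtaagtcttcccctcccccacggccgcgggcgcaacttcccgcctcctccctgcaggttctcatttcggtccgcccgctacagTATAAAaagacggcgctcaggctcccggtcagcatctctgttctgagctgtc

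Control replicate 1 stood apart from the other libraries. It had 7308 genes at 1 TPM or more, against 11088 to 11711 in the other 8, and clustered histones made up 1.46% of its TPM, against 0.244% to 0.437% in the others. With it, the middle one of 11495 tested genes had a log2 difference of 0.46, knockout higher, and without it the median of 11457 genes was -0.01. Group results are therefore given for all 9 libraries and for the 8 without this one, and single differences with the number of libraries used. Cd160, the targeted gene, ranged from 5.44 to 18.8 TPM in knockout and from 31.8 to 212 TPM in control libraries, without overlap.

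Clustered histone transcripts were lower in knockout than in control cells in nearly the whole family. Of the 69 genes, 62 passed the filter of 1 TPM in at least 4 libraries, and 59 of the 62 had a lower mean log2(TPM + 1) in knockout cells, with or without control replicate 1. Among all tested genes 13.3% were lower with 9 libraries and 52.5% with 8. The median log2 difference (knockout minus control) of the 62 genes was -0.81 with 9 libraries and -0.65 with 8. The ratio of mean TPM in knockout to control cells had a median of 0.526 and 0.631 in these comparisons. The shift was spread over many genes and was in no gene large enough to pass the test across all genes. In limma, none of the 62 genes had a Benjamini-Hochberg adjusted p under 0.05, with a lowest adjusted p of 0.595 with 9 libraries and 0.0764 with 8, where 0.0174% and 0.0262% of all tested genes passed. At an unadjusted limma p under 0.05, 17 genes were lower with 9 libraries against 0.618% of all tested genes, and 36 with 8 against 4.41%. The 17 were all among the 36, and none was higher at that level in either comparison, against 5.78% and 8.44% of all tested genes. In 20 genes with 9 libraries and 21 with 8, every knockout library lay below every control library, against 1.05% and 3.01% of all tested genes, and 20 genes did so in both. In none did every knockout library lie above every control library, against 3.88% and 4.01% of all tested genes. In bulk RNA, fewer cells in S phase, less histone RNA per cell, a different share of other cells and unequal polyA capture cannot be told apart.

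**Figure D1:**
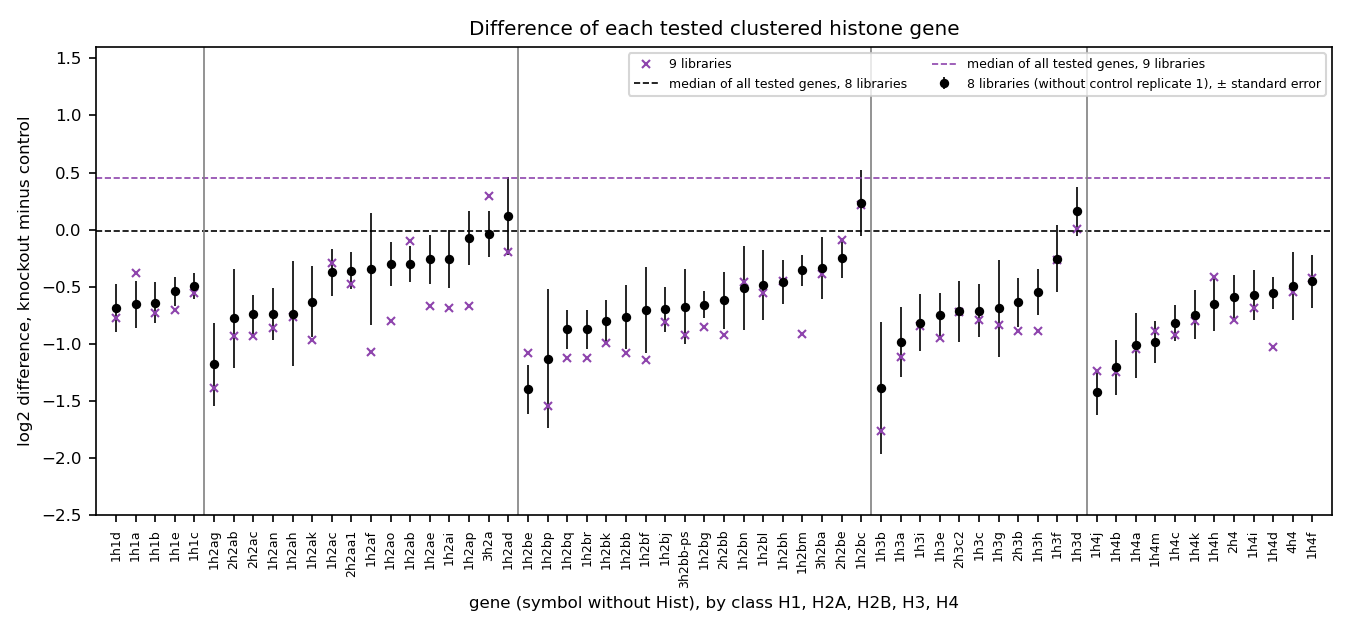
Log2 difference, knockout minus control, of each of the 62 tested clustered histone genes by class, with 8 libraries (black points, bars are standard errors) and with 9 (purple crosses). Dashed lines mark the medians of all tested genes (-0.01 and 0.46), and 59 genes lie below 0 in each comparison.

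The 7 genes that did not pass the filter were Hist1h1t, Hist1h2aa, Hist1h2al, Hist1h2ba, Hist1h4n, Hist2h2aa2 and Hist2h3c1. Hist1h1t, Hist1h2aa and Hist1h2ba are best known from male germ cells and reached at most 0.12, 0.60 and 0.27 TPM. Hist1h4n and Hist2h3c1 were listed at 0 in all 9 libraries. Hist2h2aa2 was listed at 0 in the 4 knockout libraries and in control replicates 1 and 3. In control replicates 2, 4 and 5 it was at 1.6, 1.83 and 1.44 TPM. In Hist2h2aa2 and Hist2h3c1 0% of the 38-base windows, the length of a sequencing read here, occurred in no other gene, and in Hist1h4n 14.0%. The listed values of these genes, zeros included, therefore depend on how the authors' software divided shared reads.

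Summed over each class, the TPM of H1, H2B, H3 and H4 did not overlap between the groups, whereas H2A did. Summed H1 was 178, 148, 165 and 167 TPM in the knockout libraries and 358, 210, 282, 236 and 257 TPM in the controls. Summed H4 was 300, 305, 404 and 402 TPM in knockout and 890, 511, 643, 585 and 708 TPM in control libraries. Both sums were lower in each knockout library than in any control library. Without control replicate 1 the difference of the log2 sums was -0.58 for H1, -0.60 for H2B, -0.70 for H3 and -0.80 for H4, and with it -0.69, -0.80, -0.86 and -0.91. The pooled SD between the 8 libraries was 0.15 for H1 and 0.23 for H2B. Summed H3 ran from 114 to 144 TPM in knockout and from 158 to 349 TPM in control libraries, and summed H2B from 261 to 358 TPM and from 371 to 956 TPM.

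The H2A sum was carried by Hist1h2ao and Hist1h2ap, which together made up 42.6% to 60.9% of all clustered histone TPM in the other 8 libraries and 77.1% in control replicate 1. It was 2164, 1597, 1413 and 2334 TPM in the knockout libraries and 12002, 1779, 2259, 2093 and 2644 TPM in the controls. The groups overlapped and control replicate 1 lay far above the rest. The log2 difference of the H2A sum was -0.73 with 9 libraries and -0.24 with 8, the latter below the pooled SD of 0.30. Without those 2 genes, a comparison added after the values were seen, it was -0.58 and -0.42.

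**Figure D2:**
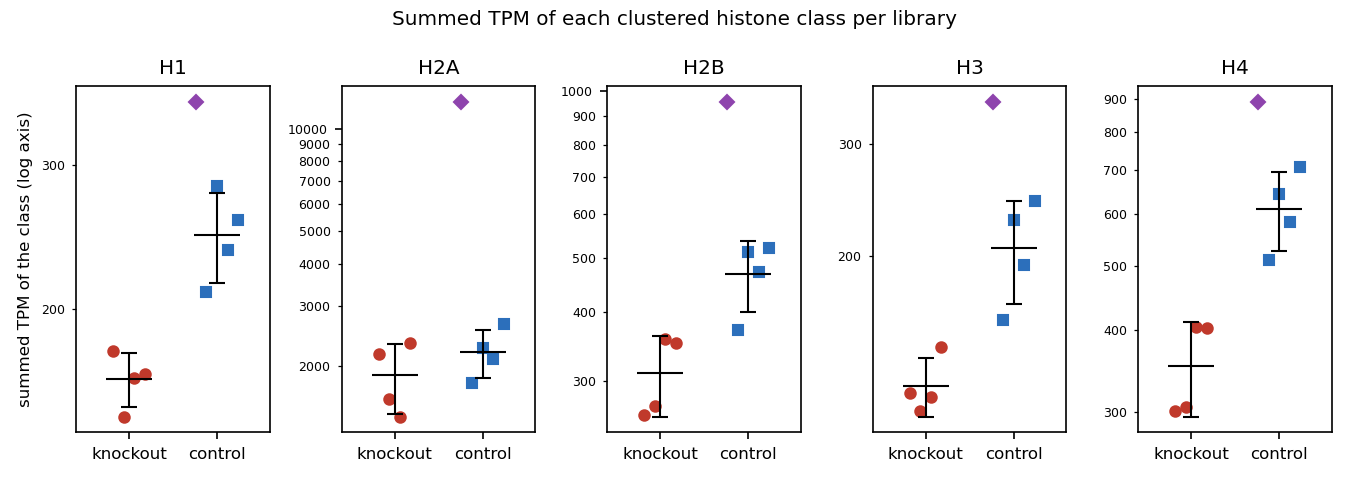
Summed TPM of each class per library on a log axis, with red circles for knockout, blue squares for control replicates 2 to 5 and a purple diamond for control replicate 1, and mean ± SD bars over the 4 knockout libraries and over control replicates 2 to 5. Knockout libraries lie below every control library in H1, H2B, H3 and H4, and the groups overlap in H2A.

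Linker histones were lower by similar amounts. All 5 tested H1 genes were lower in knockout cells, with log2 differences from -0.69 to -0.49 over 8 libraries, and all 5 had an unadjusted limma p under 0.05 there. None did with 9 libraries. Hist1h1c, an H1 subtype also known from resting cells, was at 46.8, 43.4, 45.0 and 48.7 TPM in knockout and 81.8, 58.6, 61.0, 62.9 and 79.6 TPM in control libraries. No knockout library reached the lowest control. Its log2 difference over 8 libraries was -0.49 ± 0.11 (SE), with a limma adjusted p of 0.136. Hist1h1e, the most abundant H1 gene here, was at 81.6, 66.7, 73.3 and 78.0 TPM against 191, 99.6, 140, 105 and 96.3 TPM, again without overlap. Hist1h1d did not overlap either, at 9.81 ± 1.83 TPM in knockout (SD, n = 4) and 16.6 ± 4.53 TPM in control replicates 2 to 5 (SD, n = 4). Hist1h1b overlapped by 1 pair of libraries, since knockout replicate 1, at 33.8 TPM, lay above control replicate 2, at 31.5 TPM.

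H2A had a median log2 difference of -0.35 over 8 libraries, the nearest to 0 of the 5 classes there, and of -0.73 over 9, where that of H1 was nearer to 0 at -0.70. In H2A 15 of the 16 tested genes were lower in both. Of these, 2 genes did not overlap between the groups and 3 had an unadjusted p under 0.05 with 8 libraries. Hist2h2ac was at 25.8, 24.9, 20.5 and 26.2 TPM in knockout and 80.9, 29.9, 40.9, 44.5 and 52.9 TPM in control libraries. Its log2 difference was -0.74 ± 0.17 (SE) over 8 libraries. Hist1h2ag was at 14.5, 25.7, 9.14 and 33.3 TPM against 88.6, 35.3, 56.6, 34.5 and 50.2 TPM. Its knockout libraries were spread widely, and the highest was 33.3 TPM beside a lowest control of 34.5 TPM. The abundant Hist1h2ao was at 1002, 753, 602 and 990 TPM in knockout and 5733, 839, 1053, 900 and 1314 TPM in control libraries, and the groups overlapped. Hist1h2ap had means that differed by less than the spread once control replicate 1 was left out, 699 ± 244 TPM (SD, n = 4) against 707 ± 97.5 TPM (SD, n = 4). Hist3h2a was at 42.7, 61.4, 93.7 and 58.5 TPM in knockout and 19.5, 69.2, 60.04, 62.2 and 62.02 TPM in control libraries, and its difference of 0.29 with 9 libraries became -0.04 without the low control replicate 1.

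Among H2B genes, 17 of 18 were lower with either set of libraries, with a median log2 difference of -0.66 over 8 and -0.92 over 9. With 8 libraries 7 did not overlap between groups and 10 had an unadjusted p under 0.05. Hist1h2be was at 2.75, 3.73, 4.51 and 6.81 TPM in knockout and 3.57, 12.2, 13.9, 13.4 and 12.1 TPM in control libraries. Control replicate 1 lay among the knockout libraries, and the other 4 controls lay closely together above them. The log2 difference was -1.40 ± 0.22 (SE) over 8 libraries, with a limma adjusted p of 0.103, and -1.08 over 9. Leaving out knockout replicate 4 as well gave -1.59 and an adjusted p of 0.0438. Hist1h2bg, whose promoter is shown above, was at 37.1, 29.2, 34.3 and 35.6 TPM against 108, 47.1, 51.0, 58.7 and 60.6 TPM, with the knockout libraries closely grouped. Hist1h2bq and Hist1h2br had the same value in all 9 libraries, 26.1, 23.3, 34.6 and 35.1 TPM in knockout and 131, 43.6, 66.6, 53.2 and 57.5 TPM in control libraries. Only 2.08% of the 38-base windows of Hist1h2bq, the length of a sequencing read here, occurred in no other gene, so the pair, counted as 2 genes above, was read as 1 measurement. Hist1h2bc went the other way, at 32.9, 50.7, 81.7 and 77.7 TPM in knockout and 51.7, 60.2, 45.9, 54.5 and 36.6 TPM in control libraries, with overlapping groups and a log2 difference of 0.23 ± 0.29 (SE) over 8 libraries. With 9 libraries it was 0.21, and its sign turned with median-of-ratios scaling (-0.39) and quantile normalization (-0.15), which move the median of all tested genes from 0.46 to 0.02 and -0.0011; with median-of-ratios scaling over 8 libraries it stayed at 0.23.

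For H3, 10 of 11 tested genes were lower, with a median log2 difference of -0.71 over 8 libraries and -0.85 over 9. With 8 libraries 3 genes did not overlap and 8 had an unadjusted p under 0.05. Hist1h3e was at 12.3, 10.4, 14.3 and 12.3 TPM in knockout and 44.5, 16.5, 17.3, 24.1 and 29.3 TPM in control libraries. Every control lay above every knockout library. Hist1h3i was at 23.1, 18.4, 21.2 and 18.0 TPM against 40.5, 28.1, 45.2, 24.1 and 54.6 TPM, where the highest knockout and lowest control libraries nearly touched. Hist1h3b had the most negative log2 difference of the named H3 genes, -1.39 ± 0.58 (SE) over 8 libraries and -1.76 over 9. It was listed at 0 in knockout replicates 1 and 3, at 1.42 and 4.27 TPM in replicates 2 and 4, and at 17.0, 3.22, 7.58, 1.58 and 5.41 TPM in the controls, so the groups overlapped at low values.

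H4 was lower without exception: all 12 tested genes had a lower mean in knockout cells with 9 and with 8 libraries, with medians of -0.85 and -0.70. In 6 of the 12 the groups did not overlap, with or without control replicate 1, and 10 had an unadjusted p under 0.05 with 8 libraries. Hist1h4j had the lowest p of all clustered histone genes over 8 libraries. It was at 5.00, 2.82, 3.58 and 5.18 TPM in knockout and 6.15, 13.2, 11.04, 10.95 and 15.5 TPM in control libraries. The knockout libraries lay below all controls, and control replicate 1 was the control closest to them. The log2 difference was -1.42 ± 0.20 (SE) over 8 libraries, with a limma adjusted p of 0.0764, and -1.24 over 9, with an adjusted p of 0.595. Hist1h4b had the lowest p over 9 libraries, at 2.01, 1.47, 1.74 and 3.41 TPM against 7.27, 8.21, 5.72, 4.18 and 6.93 TPM, with a log2 difference of -1.25 ± 0.32 (SE) and the same adjusted p of 0.595. These genes shared a rare stem-loop form printed above, a link picked after the p-values were seen and not tested. Over 8 libraries the 2 genes with the form of Hist1h4i had a median log2 difference of -0.58. Hist2h2ac, alone in its form, had -0.74. In Hist1h4j 72.9% of the 38-base windows occurred in no other gene, and in Hist1h4b 23.3%.

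Among abundant H4 genes, Hist1h4m was at 79.7, 85.2, 128 and 117 TPM in knockout and 144, 165, 223, 177 and 243 TPM in control libraries. Hist1h4c was at 67.4, 82.4, 114 and 93.8 TPM against 222, 131, 152, 170 and 173 TPM. In both genes no knockout library reached a control library. Their log2 differences over 8 libraries were -0.98 ± 0.18 (SE) and -0.82 ± 0.16 (SE), with limma adjusted p of 0.114 and 0.117. Hist1h4a was at 2.09, 1.59, 1.98 and 1.68 TPM in knockout and 5.36, 6.0, 6.14, 2.05 and 5.99 TPM in control libraries, and control replicate 4 alone fell among the knockout libraries. Exact two-sided permutation tests over libraries gave 0.0159 with 9 libraries (126 splits) and 0.0286 with 8 (70 splits) for each non-overlapping gene, the smallest p that these group sizes allow.

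**Figure D3:**
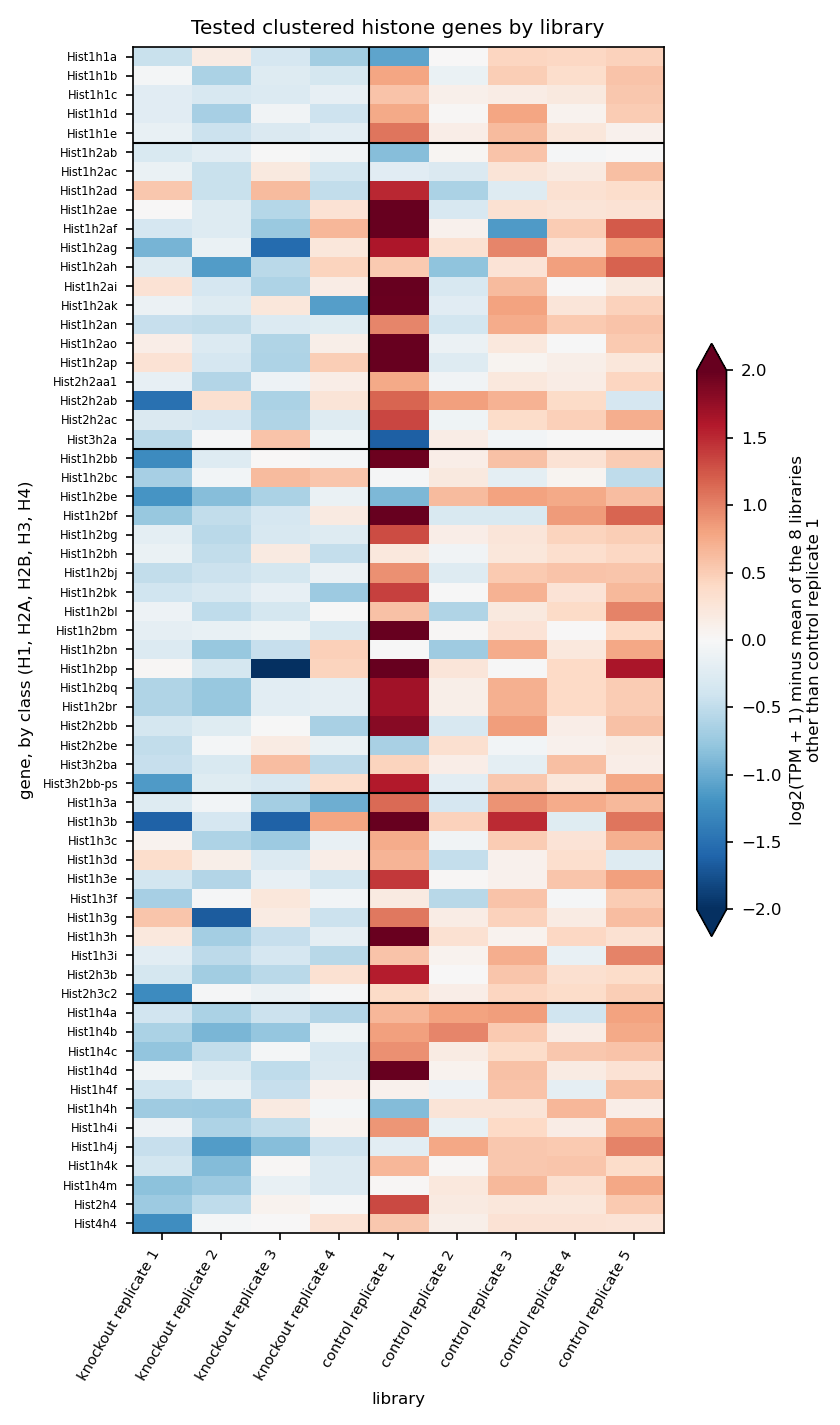
Log2(TPM + 1) of the 62 tested genes per library minus the gene's mean over the 8 libraries other than control replicate 1, by class, with the colour scale ending at ± 2. Knockout columns are mostly blue and control columns mostly red, and control replicate 1 shows the strongest red in H2A and H2B together with a few blue genes such as Hist3h2a and Hist1h2be.

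Medians were negative in each genomic cluster, with Hist4 a single gene. Over 8 libraries the median log2 difference was -0.65 for the 50 tested Hist1 genes and -0.63 for the 8 tested Hist2 genes, and over 9 it was -0.82 and -0.84. All 8 Hist2 genes were lower in both. In Hist2h2aa1, Hist2h2bb and Hist2h3b 0% of the 38-base windows occurred in no other gene, so their values depend on how shared reads were divided. Only Hist2h4 and Hist2h2be had most windows in no other gene, 98.2% and 98.8%, and they were at -0.59 and -0.25 over 8 libraries. Hist2 lies on the chromosome of Cd160, its nearest gene 528631 bases away, and Hist1 does not. The 3 Hist3 genes had a median of -0.33 over 8 libraries, all 3 lower, and of -0.39 over 9, with 2 lower and Hist3h2a higher, without any unadjusted p under 0.05. Hist4h4 had a difference of -0.49 ± 0.30 (SE) over 8 libraries and -0.55 over 9. Of the 8 tested Hist2 genes, 3 did not overlap between the groups, namely Hist2h2ac, Hist2h3c2 and Hist2h4. Hist2h4 was at 16.7, 19.5, 29.8 and 28.1 TPM in knockout and 71.8, 32.2, 33.4, 33.4 and 41.2 TPM in control libraries, and Hist2h3c2 at 13.2, 32.5, 30.5 and 32.3 TPM against 43.2, 36.3, 44.9, 43.0 and 47.0 TPM. In Hist2h3c2 knockout replicate 1 lay well below the other 3. The most abundant Hist2 gene, Hist2h2aa1, overlapped only between the extremes, at 95.5 ± 19.2 TPM in knockout (SD, n = 4) and 122 ± 17.2 TPM in control replicates 2 to 5 (SD, n = 4). Both Hist2h2ab and Hist2h2be were under 8 TPM in every library and overlapped between the groups, as did the more abundant Hist2h2bb and Hist2h3b.

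Many histone genes are arranged head to head with a neighbour, with a shared promoter region between their starts. GENCODE models gave 14 such pairs with starts within 1000 bases, and in 13 both genes were tested. Both members were lower in 11 of the 13 pairs over 8 libraries, and also in 11 over 9. Of all tested clustered histone genes 95.2% were lower in each comparison, so the count was not read as a property of pairs. The pairs with Hist1h2bq and with Hist1h2br also share 1 measurement. The remaining pairs over 8 libraries, named after their values were seen, were Hist1h2ac with Hist1h2bc, 251 bases apart, at -0.37 and 0.23, and Hist1h2bf with Hist1h2ad, 185 bases apart, at -0.70 and 0.12. Over 9 libraries the latter pair was at -1.14 and -0.20, both lower, and the pair of Hist3h2bb-ps and Hist3h2a, at -0.92 and 0.29, took its place. Closest to each other over 8 libraries were Hist1h2ah and Hist1h2bk, also chosen after their values were seen, at -0.74 and -0.80.

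Grouped by annotated transcript end, the genes were mostly lower in each group, but the groups are not distinct kinds of end. The 29 tested genes with a stem-loop and no polyadenylation signal near the end had a median log2 difference of -0.69 over 8 libraries, with 27 lower. The 15 with a polyadenylation signal had a median of -0.59, with 15 lower, and the 18 with neither had -0.64, with 17 lower. Of those 15, 11 also carried a stem-loop, with a median of -0.57. Most of the 18 had models that ended within 10 bases of the stop codon, so their ends were not annotated. Over 9 libraries these medians were -0.81, -0.69 and -0.84, with 28, 14 and 17 lower. The difference between these groups was not tested. Because histone genes of a class are nearly identical in their coding parts, short reads can be shared between them, and the share was examined by 38-base windows of the gene models. In 26 tested genes at least 50% of the windows occurred in no other gene, and 24 of these were lower over 8 libraries, with a median of -0.56 and 9 not overlapping. Among the other 36 genes 35 were lower, with a median of -0.70. Over 9 libraries 23 of 26 and 36 of 36 were lower, with medians of -0.68 and -0.87. Values of single genes in the second group depend on how the authors' software divided shared reads. Only 1 H3 gene, Hist1h3d, was in the first group, with 0.16 over 8 libraries and 0.0066 over 9, so the H3 result rests on genes with shared sequence. Summed over the first group and 8 libraries, H2B differed by -0.28 and H2A by -0.18, below their pooled SDs of 0.34 and 0.21. The same sums differed by -0.58 for H1 and -0.70 for H4, beyond their pooled SDs of 0.15 and 0.19.

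Genes that work with the clustered histones did not share the size of the difference. Over 8 libraries the median log2 difference was -0.05 for 9 replacement histones, the variants made outside S phase, -0.03 for 22 genes of histone mRNA processing, -0.12 for 23 histone chaperones, -0.15 for 41 S-phase genes and -0.05 for 25 genes of G2 and mitosis, beside -0.01 for all tested genes. The lower genes numbered 6 of 9, 12 of 22, 18 of 23, 38 of 41 and 19 of 25, beside 52.5% of all tested genes. An unadjusted limma p under 0.05 was found for 1 replacement histone and 2 S-phase genes, all lower, and for none in the other 3 lists. The 2 S-phase genes were 4.88% of their list, near the 4.41% of all tested genes that were lower at that level. None of these genes passed the adjusted test with 8 or with 9 libraries. With 9 libraries the same medians were 0.32, 0.46, 0.42, 0.43 and 0.41, beside the 0.46 of all tested genes. Control replicate 1 had the lowest mean of the 9 libraries in each of these lists.

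Slbp, which binds the stem-loop, was at 111, 126, 93.1 and 94.7 TPM in knockout and 7.04, 109, 120, 116 and 142 TPM in control libraries. The groups overlapped, and control replicate 1, the library with the highest clustered histone level, had the lowest Slbp. Npat, the activator of histone gene transcription in S phase, was at 4.33 ± 0.39 TPM in knockout (SD, n = 4) and 4.83 ± 1.57 TPM in control replicates 2 to 5 (SD, n = 4). The variant H2A gene H2afz was at 1192, 1022, 862 and 1059 TPM against 263, 983, 976, 836 and 1092 TPM, and H3f3b, which encodes the replacement histone H3.3, had a log2 difference of -0.05 ± 0.06 (SE) over 8 libraries. The exonuclease gene Eri1, which acts on histone mRNA ends, had 0.45 ± 0.26 (SE), with an adjusted p of 0.529 in limma. Of the cell cycle genes, the log2 differences over 8 libraries were -0.19 ± 0.28 (SE) for Mki67, -0.09 ± 0.13 (SE) for Pcna and -0.17 ± 0.17 (SE) for the helicase subunit gene Mcm2.

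**Figure D4:**
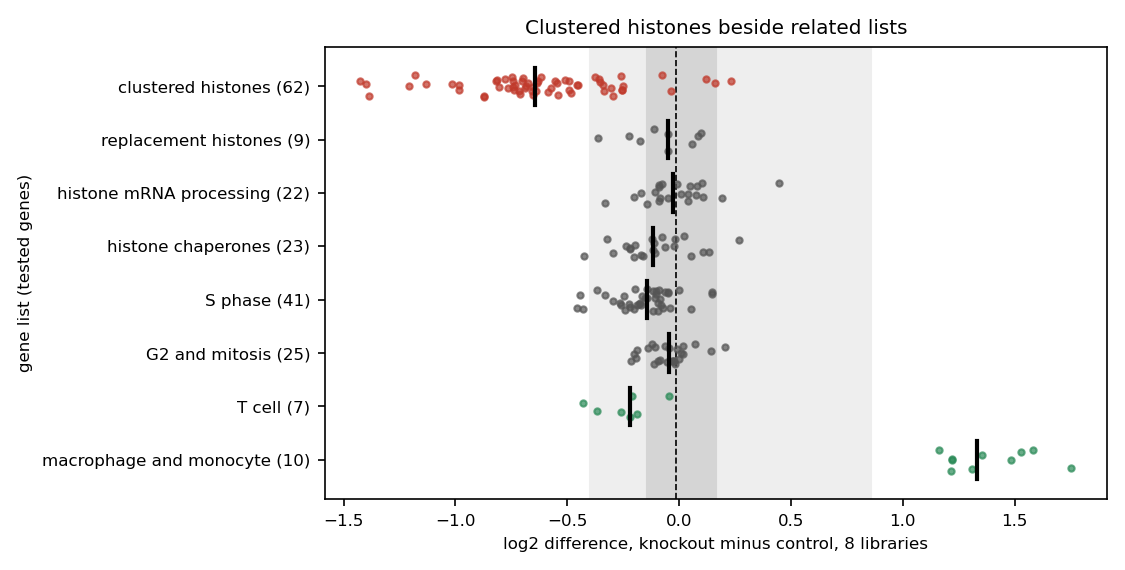
Log2 difference, knockout minus control, over the 8 libraries without control replicate 1 for each tested gene of the clustered histones and of related lists, with the number of tested genes in brackets and black bars at the medians. Dark and light grey bands hold the middle 50% and 90% of all tested genes; the clustered histones centre on -0.65 and the macrophage list on 1.33.

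Macrophage and monocyte markers also differed between the groups, and those of other cells less clearly. All 10 macrophage and monocyte markers were higher in knockout libraries, with a median log2 difference of 1.33 over 8 libraries and 1.84 over 9. Of these, 9 had an unadjusted limma p under 0.05 in each, where 8.44% and 5.78% of all tested genes were higher at that level. Their summed level ran from 8455 to 15184 TPM in knockout libraries and from 2348 to 9413 TPM in control replicates 2 to 5, and was 1003 TPM in control replicate 1. Over 8 libraries the 7 T cell markers were all lower in knockout cells, with a median of -0.22 and 3 at an unadjusted p under 0.05. Of all tested genes 4.41% were lower at that level. With control replicate 1 the direction turned, with 3 lower, 4 higher, a median of 0.28 and none at an unadjusted p under 0.05. Their sums were 4145 to 5194 TPM in knockout libraries, against 4965 to 5888 TPM in control replicates 2 to 5 and 1865 TPM in control replicate 1. Stromal markers were higher in 5 of 6 genes over 8 libraries (median 0.91) and in 6 of 6 over 9 (median 1.41), none at an unadjusted p under 0.05. Epithelial markers were higher in 3 of 5 over 8 libraries (median 0.70) and in 5 of 5 over 9 (median 1.06), with 2 at that level in each. The 3 erythroid markers were lower in both, with medians of -1.03 and -1.28, none at that level. Of the CD8 T, NK, dendritic, B and plasma, and neutrophil lists, only the neutrophil list held a gene at that level. It was 1 of 3 tested, higher in both comparisons, and no mast cell marker passed the filter. Summed stromal markers ran from 66.2 to 364 TPM in knockout and from 69.7 to 148 TPM in control replicates 2 to 5, epithelial from 50.7 to 75.6 TPM and from 30.6 to 72.4 TPM, and erythroid from 6.33 to 524 TPM and from 14.9 to 1017 TPM. The part of these cells in the histone result was not tested, and the covariate fit below cannot measure it. The mean macrophage level nearly followed the groups, at 7.59 to 8.81 in knockout libraries and 6.12 to 7.88 in control replicates 2 to 5. Adjusting for it can therefore also take out part of the group difference itself and can widen the standard errors, neither of which was measured. A change in such a fit cannot be assigned to the groups or to these cells. With the mean macrophage level as a covariate over the 8 libraries, a fit added after the values were seen, 53 of 62 histone genes were lower, with a median of -0.42, and 14 had an unadjusted p under 0.05, against 36 without the covariate. In that fit 35.4% of all tested genes were lower, with a median of 0.11, and 3.09% were lower at an unadjusted p under 0.05. With the mean of the S-phase list as the covariate, 59 were lower, with a median of -0.56, and 31 had an unadjusted p under 0.05. There 42.5% of all tested genes were lower, with a median of 0.04, and 4.02% were lower at that level.

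The mean log2(TPM + 1) of the 62 histone genes was 3.83, 3.79, 3.92 and 4.11 in the knockout libraries and 5.24, 4.23, 4.63, 4.51 and 4.75 in the controls, without overlap. The mean of the S-phase list overlapped, at 5.07, 5.10, 4.63 and 4.92 against 2.30, 4.77, 5.27, 4.99 and 5.32. The mean of the macrophage and monocyte list overlapped too, at 7.59, 7.94, 8.76 and 8.81 against 4.47, 7.88, 6.25, 7.33 and 6.12. From lowest to highest histone level, control replicates 2 to 5 were ordered 2, 4, 3, 5. Their order by S-phase level was the same, and by macrophage level the reverse. Knockout replicates were ordered 2, 1, 3, 4 by histone level, 3, 4, 1, 2 by S-phase level and 1, 2, 3, 4 by macrophage level. These orders of 4 libraries were not tested.

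**Figure D5:**
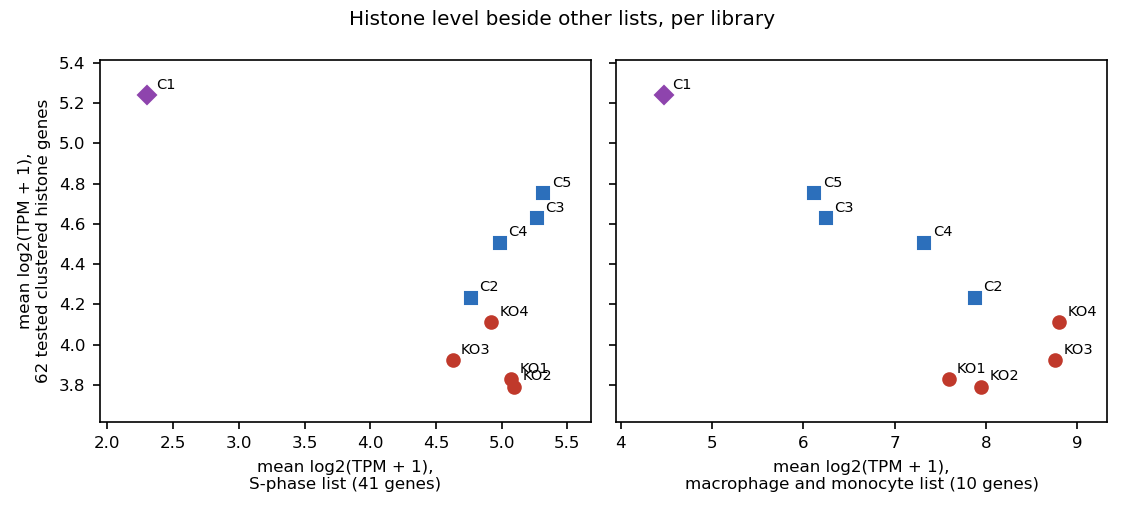
Mean log2(TPM + 1) of the 62 tested clustered histone genes (vertical) against that of the S-phase list (left) and of the macrophage and monocyte list (right), per library (KO, knockout; C, control). The knockout libraries lie at 3.79 to 4.11 on the vertical axis and the controls at 4.23 to 5.24, while the horizontal ranges of the groups overlap.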

How the data were processed

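Expression of 9 bulk libraries from colonic CD4+ T cells was read from the table of TPM values deposited by the authors. Per the submitters' processing notes the tools were RSEM 1.2.31, Bowtie2 2.2.9 and Trimmomatic 0.32 and the build was GRCm38, and no settings are given. TPM scales each library to the same total, so a few abundant transcripts lower all other values, and the depth per library is unknown.

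Groups and replicate numbers followed the titles. Log2(TPM + 1) was compared with limma 3.58.1 in R 4.3.3 (lmFit, eBayes with an intensity trend) over genes that reached 1 TPM in 4 libraries or more. Benjamini-Hochberg adjustment covered every tested gene, and 0.05 was the threshold. The fit was tested on simulated data. The main comparisons are given with 9 libraries and without control replicate 1. Differences on this scale understate the change of genes at low values.

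The genes, the gene lists and the tests were chosen with earlier results of these data known. Genes were named by rule: in each class up to 4 tested genes by smallest p with 9 libraries, the 2 with the highest mean and up to 2 by smallest p with 8 libraries; every tested Hist2, Hist3 and Hist4 gene; 3 genes of each companion list by smallest p; and 9 preset genes. Of the 35 histone genes this gave, most are described, a selection made with the values known.

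Alternatives were other pseudocounts, filters and scalings, robust variance estimation, the replicate block, exact permutation tests and leaving out libraries; covariates, further omissions and sums over subsets were added after the data were seen. Sequence features were searched in GENCODE M21 transcripts and RefSeq promoter windows with Python 3.11.15, and figures drawn with matplotlib 3.10.9.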

Additional observations from a re-analysis of the deposited data

Results flagged for a closer look

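Of 80 gene or class groups of 4 or 5 libraries examined, 7 held a library far from the others of its group, where chance gives about 1 in 20 such groups (5%), and 5 of the 7 involved control replicate 1. The groups are not independent, since the libraries recur and the H2A sum contains Hist1h2ao and Hist1h2ap. The count is therefore no test of an excess. Control replicate 1 was far above the other controls in Hist1h2ao (5733 TPM), in Hist1h2ap (5485 TPM) and in the summed H2A class (12002 TPM). The same library was far below the other controls in Hist1h2be (3.57 TPM) and in Hist3h2a (19.5 TPM). Knockout replicate 1 was far below the other knockout libraries in Hist2h3c2 (13.2 TPM), and control replicate 4 far below the other controls in Hist1h4a (2.05 TPM).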

How the results depend on the processing

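Most tested clustered histone genes were lower under each alternative run, from 53 of 62 genes (macrophage covariate, without control replicate 1) to 62 of 62 (median-of-ratios or quantile scaling), with 52 of 55 under a filter of 5 TPM and 62 of 67 under none. With median-of-ratios scaling of the 9 libraries 48.1% of all tested genes were lower, against 13.3% without scaling. Of 767 values of the 35 named histone genes under alternatives, 753 kept direction and side of the threshold. The exceptions were 14 reversals in 5 genes, none of them called. These 767 values leave out the omissions of control replicate 1 together with a second library, given below. Hist2h2be ranged from -0.25 to 0.028 when 1 library was left out, positive without knockout replicate 1. Hist3h2a ranged from -0.038 (without control replicate 1) to 0.46 when 1 library was left out. It was -0.31 with median-of-ratios scaling, -0.035 with that scaling and without control replicate 1, -0.16 with quantile normalization, and without control replicate 1 -0.18 with the S-phase covariate and -0.37 with the macrophage covariate. Hist1h2bc was -0.39 with median-of-ratios scaling, -0.15 with quantile normalization, -0.0075 with the S-phase and -0.53 with the macrophage covariate. Hist1h2ap was 0.064 with the S-phase and 0.15 with the macrophage covariate, and Hist1h2ao 0.074 with the latter. The count of genes at an unadjusted p under 0.05, 17 of 62, depended on the setting. It was 9 with median-of-ratios scaling and 36 with that scaling and without control replicate 1. Of all tested genes 0.618%, 1.76% and 5.44% were lower at that level in these 3 settings. The count was 28 with quantile normalization, 30 without a filter, and 34 in exact permutation tests, where the shares of all tested genes are not given here. Without control replicate 1 it was 36, and there it was 31 with the S-phase covariate and 14 with the macrophage covariate. Leaving out 1 library gave 5 (without knockout replicate 1) to 36 (without control replicate 1); 7 remained without knockout replicate 2 or 3, 10 without control replicate 5 and 11 without control replicate 3. Leaving out control replicate 1 and 1 more gave 29 to 44, and 0 to 2 genes then passed the adjusted threshold, of 5 genes called in all without knockout replicate 4 and 15 without control replicate 2. They were Hist1h2be without knockout replicate 4 and Hist1h2an (adjusted p 0.0349 in limma) and Hist1h2bj (0.0415) without control replicate 2. The differences of the log2 class sums with median-of-ratios scaling were -1.30 for H1, -1.42 for H2B, -1.47 for H3 and -1.52 for H4, with pooled SDs of 1.19 to 1.37, and -1.35 for H2A, with 1.86. Without control replicate 1 the same scaling gave -0.57 for H1, -0.24 for H2A, -0.59 for H2B, -0.70 for H3 and -0.79 for H4. Leaving out 1 library gave -0.77 to -0.58 for H1, -0.93 to -0.24 for H2A, -0.94 to -0.60 for H2B, -0.99 to -0.70 for H3 and -0.996 to -0.80 for H4. Summing only genes with at least 50% unique windows gave 0.0066 for H3 with 9 libraries and 0.16 with 8. For H2B it gave -0.41 with 9 (pooled SD 0.39) and -0.28 with 8 (0.34). For H2A it gave -0.21 with 9 (0.20) and -0.18 with 8 (0.21), and for H4 -0.88 (0.35) and -0.70 (0.19). For H1 it left the sums as they were. The cause was not tested. Replicate numbers were shared by the groups, but the deviations of same-numbered libraries correlated at -0.02, -0.09, -0.14 and -0.09, so the numbers were not read as pairs; with the replicate block 60 genes were lower and 5 had an unadjusted p under 0.05, and in pairs 2 to 4 these were 56 of 61 and 24. Unknown depth limits the reading of genes at a few TPM.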
